A study of Mus musculus with 4 samples.

Results

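The genes Cxcl12, Cxcr4, Ackr3, Cxcl14, Ccl2 and Cx3cl1 encode 4 chemokines and 2 chemokine receptors, and their levels were followed in developing mouse molars. They were taken as every probe that carries the gene's name or an older synonym (Ackr3 is Cmkor1 on this array), which gave 9 probes of 41174 and 6 genes of the 17396 measured. The 6 genes were chosen by their log2 ratios on these same 4 arrays, so these ratios are given as a description without a test. Whole first mandibular molar germs of C57BL/6 embryos, pooled within a stage, were profiled at embryonic day (E) 11, E12, E16 and E18. RNA of each of these stages was labelled with Cy5 and hybridised with Cy3-labelled RNA of pooled E14 germs of the same strain, on 1 two-colour oligonucleotide array per stage. No genotype or treatment differed between the groups. The labels do not say how many germs went into a pool or whether 1 E14 pool served all 4 arrays.

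Chemokines are small secreted or membrane-anchored proteins that guide migrating cells through G protein-coupled receptors. Cxcl12 binds Cxcr4, which signals through inhibitory G proteins, and Ackr3, an atypical receptor that takes up the ligand and passes signals mainly through arrestins. The Cxcl12 and Cxcr4 pair guides blood cell precursors, germ cells, growing vessels and neural crest derivatives, and in teeth its best known setting is the stromal and stem cell compartment of the pulp. Cxcl14 is a chemokine of epithelia and their neighbouring stroma, Ccl2 attracts monocytes through Ccr2, and Cx3cl1 (fractalkine) is a membrane-bound chemokine whose receptor is Cx3cr1.

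The promoters of the ligand Cxcl12 and of its receptors are shown because the ligand was lower and Ackr3 higher at E18 than at E11. Each runs from 250 bases before to 50 after the transcription start (RefSeq, build GRCm38.p6), 5′ to 3′ on the gene's strand. They lie at chr6:117168285-117168584, plus strand for Cxcl12, at chr1:90203730-90204029, plus strand for Ackr3 and at chr1:128592250-128592549, minus strand for Cxcr4. Capitals mark the core letters TATAAA, which bind the basal transcription machinery, and the GC box GGGCGG. Both strands were searched and overlapping matches counted.
Cxcl12: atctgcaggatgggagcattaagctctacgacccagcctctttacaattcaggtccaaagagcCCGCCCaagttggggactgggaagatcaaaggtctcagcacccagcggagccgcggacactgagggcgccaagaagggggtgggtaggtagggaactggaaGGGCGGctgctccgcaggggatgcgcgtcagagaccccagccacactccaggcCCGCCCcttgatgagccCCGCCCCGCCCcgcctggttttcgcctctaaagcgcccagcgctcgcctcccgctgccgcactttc
Ackr3: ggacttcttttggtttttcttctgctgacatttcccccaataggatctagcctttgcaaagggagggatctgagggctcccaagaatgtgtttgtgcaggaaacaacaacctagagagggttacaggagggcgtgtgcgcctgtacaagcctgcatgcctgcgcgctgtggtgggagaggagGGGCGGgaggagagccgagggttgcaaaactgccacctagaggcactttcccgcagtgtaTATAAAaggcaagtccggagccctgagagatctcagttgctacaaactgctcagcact
Cxcr4: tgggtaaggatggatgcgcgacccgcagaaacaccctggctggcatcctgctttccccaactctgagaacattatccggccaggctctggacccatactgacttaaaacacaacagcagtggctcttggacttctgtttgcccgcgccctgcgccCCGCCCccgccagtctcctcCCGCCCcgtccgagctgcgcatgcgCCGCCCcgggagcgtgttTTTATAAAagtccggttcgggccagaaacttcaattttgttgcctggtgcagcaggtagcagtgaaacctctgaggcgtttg
The Cxcl12 promoter holds 5 GC boxes and 0 matches of the other motif. The promoter of Ackr3 holds 1 match of each, and the promoter of Cxcr4 holds 3 GC boxes and 2 overlapping matches of the other. Of 32851 promoters of the same length, 35.7% hold a GC box and 13.6% hold the other motif. The letters ACGTG, core of the hypoxia response element, was not found in any of the 3 windows, and 19.6% of promoters hold it. RefSeq's table gave a promoter for 5 of the 6 genes, and these matches are letters in a window, not measured sites.

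All values below are spot signals in scanner units or log2 ratios of the named stage over E14. Log2 ratios were taken after background correction and an intensity-dependent normalisation within each array. The spread of a gene is that of its E14 channel over the 4 hybridisations, after average intensities were matched between arrays. It had a median SD of 0.05 log2 units over all genes and a 95th percentile of 0.12. This spread holds technical error, and also spread between E14 pools if the arrays did not share the same pool, which the labels do not say. It holds no spread between pools of a named stage. With no dye swap, a dye bias of a probe and its difference from E14 cannot be told apart, whereas such a bias cancels between the named stages. In whole germs, fewer cells of a type and less RNA per cell cannot be told apart. All 12 dental epithelium markers were above background in the stage channel at E12, E16 and E18 and 11 of them at E11, where Shh was not. All 12 dental mesenchyme markers were above background at every stage.

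Cxcl12 was high in early germs and low in late ones. On its transcript variant 2 probe (chr6:117207552-117207611, build mm7), which stands for the gene, the mean signal was 7857 at E11 and 9019 at E12, then 1154 at E16 and 311 at E18. The E14 channel of the same arrays read 1881, 1792, 1985 and 1978. The stage signals ran far apart while the E14 channel hardly moved. The log2 ratios to E14 were 0.55 at E11 and 0.58 at E12, then -2.05 at E16 and -3.18 at E18, with an E14 SD of 0.03 (n = 4 hybridisations). Cxcl12 was thus 1.47-fold higher at E11 and 1.50-fold higher at E12 than at E14, and 4.13-fold lower at E16 and 9.04-fold lower at E18. E18 lay 13.3-fold below E11, a log2 difference of -3.73. Ordered by level, E12 and E11 stood 0.03 apart, within the E14 range of 0.07. E14, E16 and E18 followed with steps of 0.55, 2.05 and 1.13 log2 units, all wider than that range. In the log2 difference of E18 over E11, Cxcl12 by this probe was 9th from the lowest of 17396 genes. The median over its probes gave -2.14 in place of -3.73. Since the gene was chosen by these ratios, nothing is read from its place.

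The second Cxcl12 probe showed a much shallower course. It is annotated to transcript variant 1 and lies 6753 bases away at chr6:117200799-117200858 (mm7). Transcript variants of this gene differ at their 3′ end and encode chemokine isoforms with different C-termini. Its signal was 193 at E11 and 201 at E12, then 173 at E16 and 79.4 at E18, with 119.7 to 136 in the E14 channel, and it was above background in both channels on all arrays. Its log2 ratios were -0.28, -0.41, -0.60 and -0.83 at E11, E12, E16 and E18, with an E14 SD of 0.08 (n = 4). Both probes were therefore lower at E16 and E18 than at E14, and they differed in sign at E11 and E12. E18 over E11 was -0.55 on the variant 1 probe. Across background corrections and the scanner's own log ratios, E18 over E11 ranged between -3.73 and -4.05 on the variant 2 probe and between -0.55 and -1.25 on the variant 1 probe. With each array centred on its median in place of the intensity-dependent curve, the values were -4.48 and -0.88, and at E11 the ratios to E14 became 1.80 on the variant 2 probe and 0.21 on the variant 1 probe. The sign of the variant 1 probe at E11 and E12 thus turned with the normalisation, while that of the variant 2 probe did not.

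**Figure D1:**
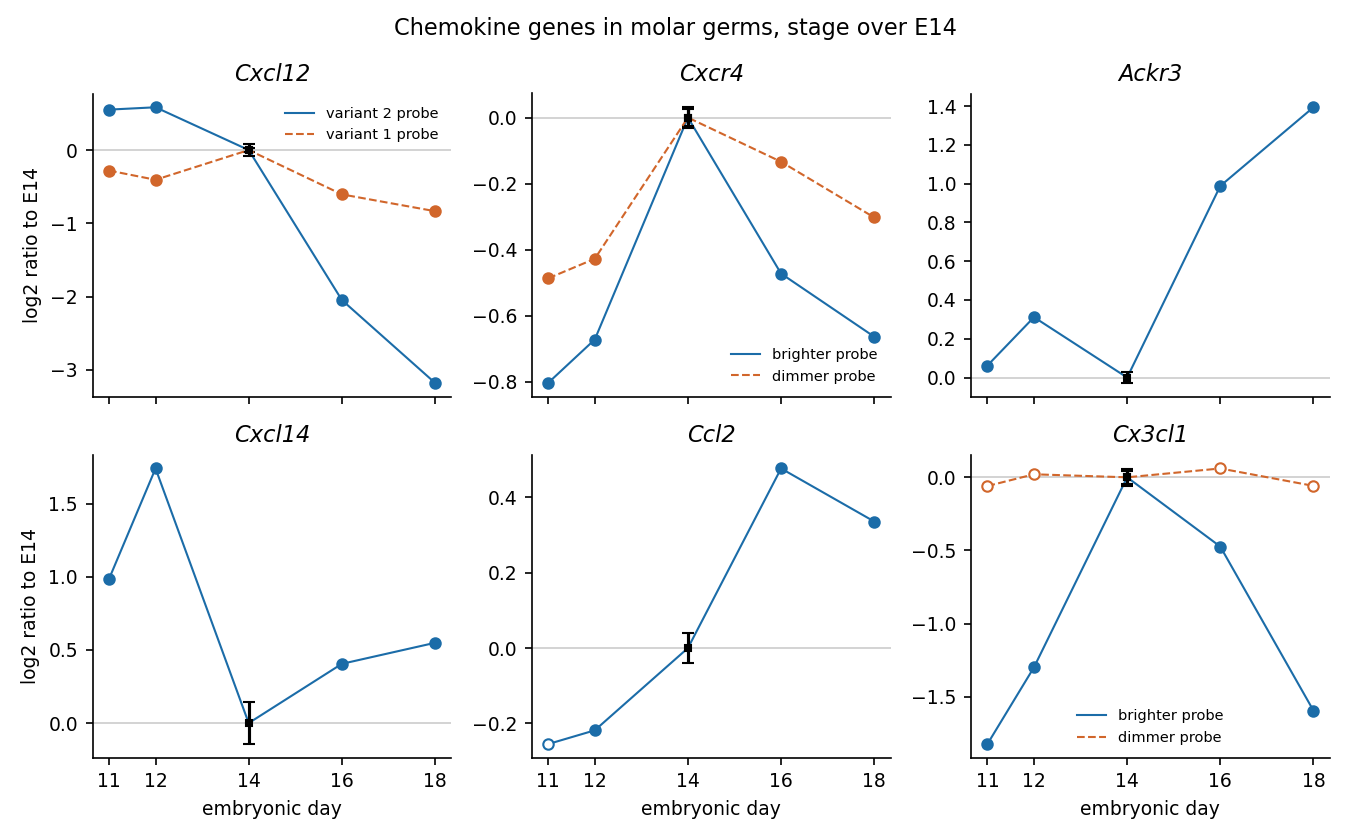
Log2 ratio of the named stage over E14 (vertical axis, each panel with its own scale) by embryonic day for every probe of the 6 genes. E14 is 0 by construction, its bar is the SD of the E14 channel over 4 hybridisations, open circles were not well above background, and dashed lines are second probes. Cxcl12 ends at -3.18 on its variant 2 probe, Ackr3 at 1.39, and Cxcr4 and Cx3cl1 have no point above 0 on their brighter probes.

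**Figure D2:**
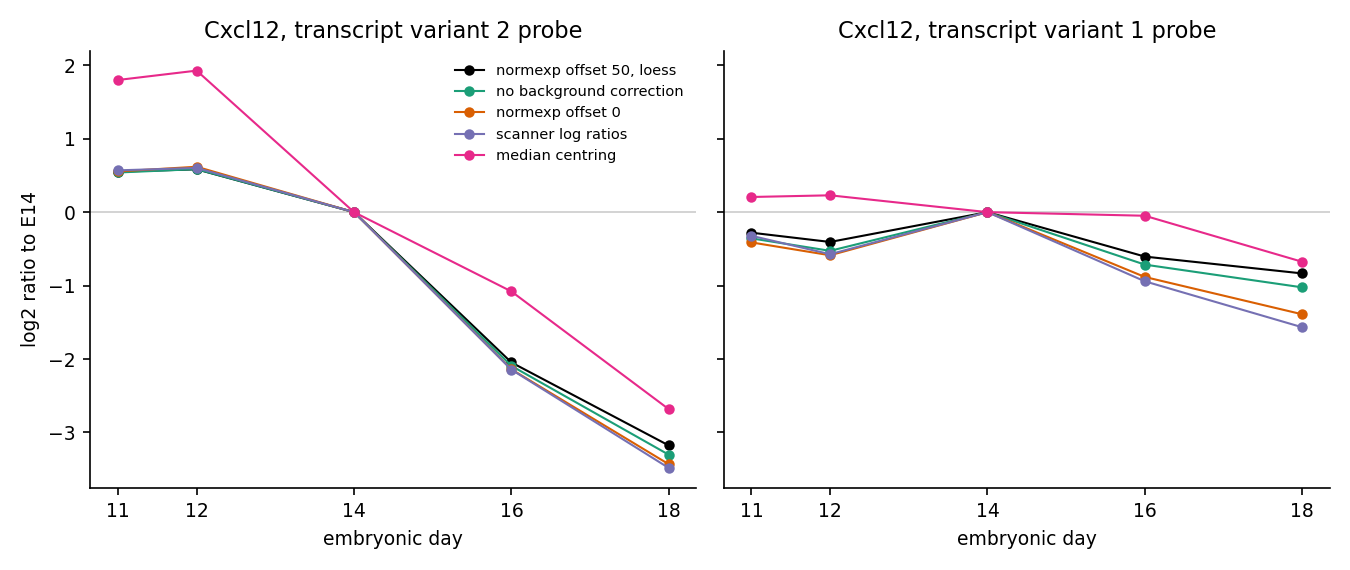
Log2 ratio to E14 (vertical axis) by embryonic day for the variant 2 (left) and variant 1 (right) probes of Cxcl12, 1 line per processing setting. On the variant 2 probe E18 is the lowest point in each setting, and median centring lifts E11 to 1.80 on that probe and to 0.21 on the variant 1 probe.

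Cxcr4, the signalling receptor of Cxcl12, had its highest normalised level at E14. Its brighter probe (chr1:128468640-128468699, mm7) read 70.3 at E11 and 93.1 at E12, then 112 at E16 and 63.8 at E18, against 82.4, 85.8, 89.8 and 94.3 in the E14 channel. Before normalisation the stage signal lay below E14 at E11 and E18 and above it at E12 and E16. The log2 ratios were -0.80, -0.67, -0.47 and -0.66 at E11, E12, E16 and E18, with an E14 SD of 0.02 (n = 4). Cxcr4 was thus 1.75-fold lower at E11, 1.59-fold at E12, 1.39-fold at E16 and 1.58-fold at E18 than at E14. E18 and E12 stood 0.01 log2 units apart, within the E14 range of 0.06, and the other neighbours in the order E14, E16, E18, E12, E11 lay further apart than that. The second probe (chr1:128469220-128469279) gave -0.49, -0.43, -0.13 and -0.30, the same sign on each array and smaller ratios. Its signal was close to background, 46.6 to 83.6 in the stage channel and 54.2 to 58.5 in the E14 channel. Without the offset of 50 that damps dim spots, the brighter probe stood at -1.62, -1.23, -0.82 and -1.31. With median centring it stood at -0.61, -0.33, -0.11 and -0.58, and the second probe at E16 became 0.07. Between E18 and E11 Cxcr4 differed by 0.14, where Cxcl12 differed by -3.73.

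Ackr3, the atypical receptor of Cxcl12, was higher at each later named stage. Its probe (chr1:90120005-90120064, mm7) read 1243 at E11 and 1917 at E12, then 2554 at E16 and 2162 at E18, while the E14 channel stayed between 505 and 519. The log2 ratios were 0.06, 0.31, 0.99 and 1.39 at E11, E12, E16 and E18, with an E14 SD of 0.03 (n = 4). Ackr3 was thus 1.04-fold higher at E11, 1.24-fold at E12, 1.98-fold at E16 and 2.63-fold at E18 than at E14. E18 was 2.52-fold over E11. From E14 upwards the steps to E11, E12, E16 and E18 were 0.06, 0.25, 0.68 and 0.41 log2 units, and the first of them barely exceeded the E14 range of 0.06. The place of E11 next to E14 rested on the normalisation. The uncorrected Cy5 signal at E11 was 2.43-fold that of Cy3, and median centring gave 0.98, 1.46, 1.93 and 1.93 for the 4 stages, with no step between E16 and E18. E18 over E11 was 0.95 in that setting and between 1.33 and 1.43 in the other settings run.

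Cxcl14 peaked at E12. Its probe (chr13:55377968-55378027, mm7) read 2472 at E11 and 5879 at E12, then 1526 at E16 and 1122 at E18, against 504, 547, 479 and 494 in the E14 channel. The log2 ratios were 0.98, 1.74, 0.41 and 0.55 at E11, E12, E16 and E18. The E14 SD of 0.14 (n = 4) was above the 95th percentile of genes. Cxcl14 was 1.98-fold higher at E11, 3.34-fold at E12, 1.32-fold at E16 and 1.46-fold at E18 than at E14. With median centring the log2 ratios were 1.98, 2.98, 1.31 and 1.03, so that E18 came below E16, and E12 was still the highest. The difference between E18 and E16 of 0.14 lay within the E14 range of 0.32, and each other neighbouring pair in the order E12, E11, E18, E16, E14 was further apart. E16 over E12 was -1.34 and E18 over E11 was -0.44.

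Ccl2, the monocyte attractant, was close to background throughout, and its probe (chr11:82118723-82118782, mm7) was printed 10 times per array. The mean signal was 48.1 at E11 and 54.2 at E12, then 119 at E16 and 76.9 at E18, against 40.9, 42.1, 43.7 and 44.3 in the E14 channel. At E11, 1 of the 10 spots bore an outlier flag and was left out, with a signal of 126 in the stage channel and 73.4 in the E14 channel. Above background stood 0 of the 9 remaining spots at E11, 9 of 10 at E12, and all 10 at E16 and at E18. The log2 ratios were -0.25 ± 0.08 at E11 and -0.22 ± 0.12 at E12, then 0.48 ± 0.07 at E16 and 0.34 ± 0.06 at E18 (SD between spots of 1 array). Spots at E16 ranged between 0.38 and 0.55 and those at E12 between -0.38 and -0.04. These are repeat spots of 1 array each, so the ranges hold technical error and no spread between pools of a stage. For E11 only a bound is given, at least 1.19-fold lower than E14. It takes the E14 level over the higher of the array's detection floor and the dim signal itself. Here the dim signal was the higher, so the bound equals the normalised ratio. It rests on the normalisation, since the uncorrected signal of 48.1 at E11 lay above the 40.9 of E14. No difference from E11 is therefore read for the other stages. The scanner's log ratios were -1.07, 1.37 and 1.18 at E12, E16 and E18, so the signs held and the sizes depended on how dim spots were treated.

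Cx3cl1, the membrane-bound chemokine, was lower at all 4 named stages than at E14. Its informative probe (chr8:93371329-93371388, mm7) read 219 at E11 and 410 at E12, then 735 at E16 and 187 at E18, against 415, 390, 442 and 435 in the E14 channel. The log2 ratios were -1.82, -1.30, -0.47 and -1.60 at E11, E12, E16 and E18, with an E14 SD of 0.04 (n = 4). Cx3cl1 was 3.54-fold lower at E11, 2.46-fold lower at E12, 1.39-fold lower at E16 and 3.02-fold lower at E18 than at E14. In the order E14, E16, E12, E18, E11 the smallest gap, 0.23 between E18 and E11, was still wider than the E14 range of 0.10. Between the named stages E16 was the highest, at 1.35 over E11, and E18 over E16 was -1.12. With median centring E16 lay at 0.38, above E14, and the other 3 stages remained below it. The median of all genes stood at 0.57 on that array in that setting, so Cx3cl1 was still under the typical gene. E18, at -1.25, came below E11, at -1.15, in that setting, so their order rested on the normalisation. The second probe (chr8:93361886-93361945) was not well above background in either channel on any array.

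**Figure D3:**
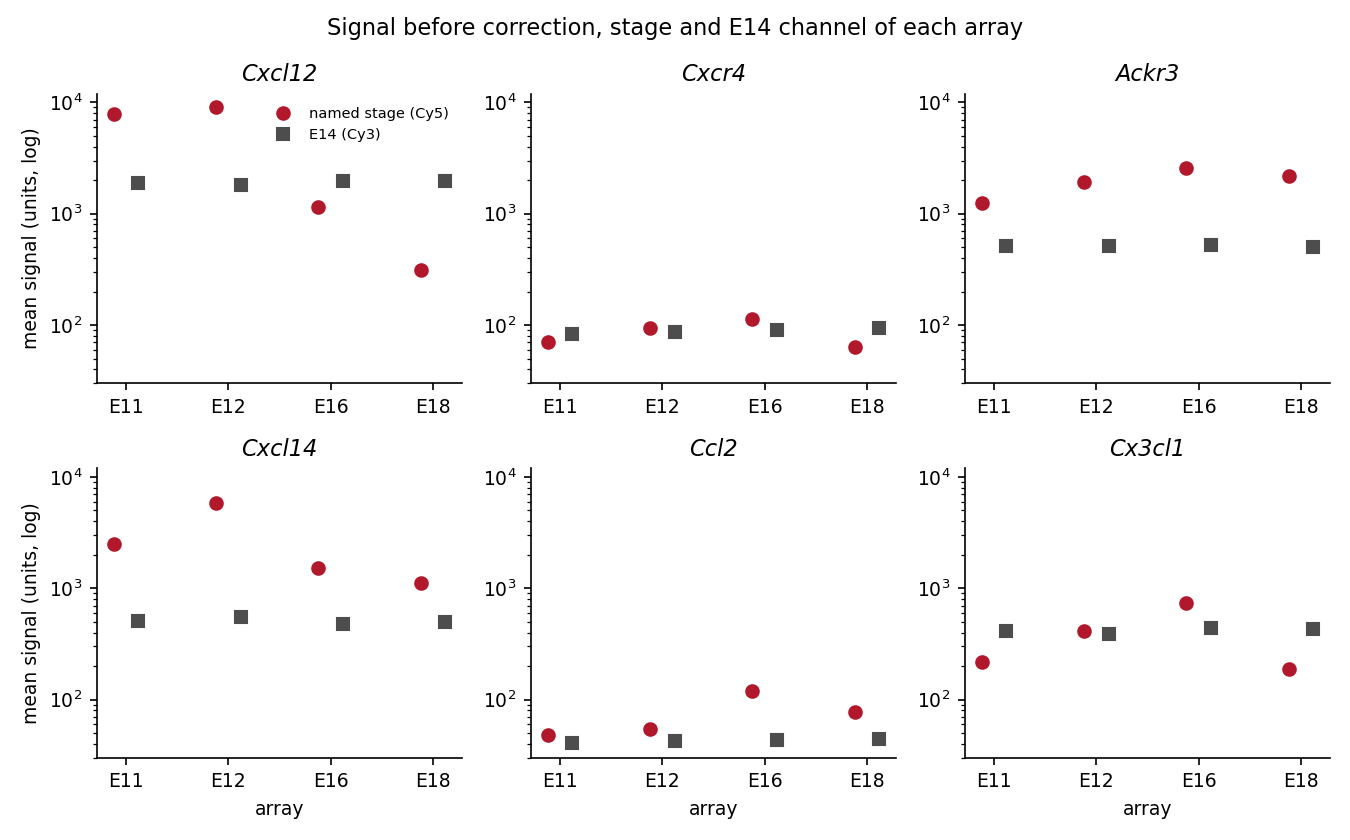
Mean spot signal before correction in scanner units (log axis) for the probe that stands for each gene, with the named stage (Cy5, circles, left) beside E14 (Cy3, squares, right) on each of the 4 arrays. The E14 squares are nearly level for every gene, while the Cxcl12 circles run between 9019 at E12 and 311 at E18, and Ccl2 and Cxcr4 stay at or below 119.

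Set against the whole array, 1 of the 6 genes was at least 2-fold from E14 at E11 (6.47% of genes), 2 at E12 (2.96%), 1 at E16 (3.7%) and 3 at E18 (7.66%). These were Cx3cl1 at E11, Cx3cl1 and Cxcl14 at E12, Cxcl12 at E16, and Cxcl12, Cx3cl1 and Ackr3 at E18. Between E18 and E11, 2 of the 6 (Cxcl12 and Ackr3) were at least 2-fold apart, against 8.46% of genes. Cxcr4 and Cx3cl1 lay below E14 on all 4 arrays, as did 21.8% of genes, and Ackr3 and Cxcl14 above it on all 4, as did 21.4%. Since the choice of the genes used these ratios, nothing is read from the counts. The 4 ratios of a gene share E14, so a level that is peculiar to the E14 RNA moves all 4 the same way.

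The genes nearest to each of the 6 were found by the root mean square difference of the 4 log2 ratios, over 13633 other genes above background in both channels on all arrays. Nearest to Cxcl12 were Pcdh10, a protocadherin, at 0.17, Eya1, a transcriptional coactivator and phosphatase, at 0.23, and Dnm3os, a noncoding microRNA host gene, at 0.33. Pcdh10 stood at 0.45, 0.31, -2.03 and -3.00 at E11, E12, E16 and E18. Only 2 genes lay within 0.25 of Cxcl12, 47 of Ackr3, 8 of Cx3cl1 and none of Cxcl14. Nearest to Ackr3 were the zinc transporter gene Slc30a4 at 0.06, Slain1 at 0.08 and the receptor tyrosine kinase gene Kit at 0.09. Nearest to Cxcl14 were Lrrn1 at 0.39, Zfp239 at 0.42 and Mycl at 0.43. Nearest to Cx3cl1 were the homeobox gene Nkx2-3 at 0.09, an expressed sequence tag without a gene name at 0.12 and Fmod, a small proteoglycan gene, at 0.12. Tmc6, Serpinh1 and Mgat1 were nearest to Cxcr4, each at 0.06, but 457 genes lay within 0.25 of this flat profile. Ccl2 was left out because it was not above background at E11.

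Among the other chemokine ligands, the platelet chemokine genes Pf4 and Ppbp fell with embryonic day and none rose. Of 35 listed ligands 32 were on the array and 14 were measured. A linear trend of the log2 ratio over the 4 arrays was tested with limma for all 17396 genes, of which 2.66% fell and 6.43% rose at an adjusted p under 0.05. Pf4 stood at 2.42, 1.62, 1.07 and -0.12 at E11, E12, E16 and E18, a slope of -0.31 ± 0.05 (SE) log2 units per day (adjusted p = 0.017, limma). Ppbp stood at 2.18, 1.43, -0.39 and -0.51, a slope of -0.39 ± 0.05 (adjusted p = 0.009, limma). Both were above E14 at E11 and E12. At E18 Pf4 lay within its E14 SD of 0.13 (n = 4), and Ppbp was not above background and at least 1.41-fold lower. The other 12 measured ligands did not pass. Ccl25, a ligand known from thymus and gut, stood at 1.41, 0.83, 0.30 and 0.79. Ccl9 stood at -0.90, -1.19, 0.39 and 0.08, more than 2-fold lower than E14 at E12. By bounds, Cxcl5 was at least 2.08-fold lower at E11 and 1.92-fold lower at E18, and Ccl24 at least 1.52-fold higher at E11. The median log2 ratios of the 14 ligands were -0.01, -0.03, 0.14 and -0.01 at the 4 stages, and those of all genes lay between -0.02 and 0.01.

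Of the other chemokine receptors, Ackr2, an atypical receptor that clears inflammatory CC chemokines including Ccl2, rose with embryonic day and none fell. All 21 listed receptors were on the array and 7 were measured. Ackr2 stood at -0.21, -0.21, 0.38 and 0.42 at E11, E12, E16 and E18, a slope of 0.10 ± 0.02 (adjusted p = 0.029, limma). At E11 it was not above background and at least 1.16-fold lower, and it missed the threshold with median centring (adjusted p = 0.057, limma) and without the E12 array. Cx3cr1, the receptor of Cx3cl1, stood at 0.03, -0.13, 0.19 and -0.09 and did not pass (adjusted p = 0.90, limma). Ccr2, the receptor of Ccl2, was above background in the stage channel on 1 array, at E16, and there it stood at -0.13. Ackr1, an atypical receptor of venules and erythroid cells, stood at -1.22, -0.66 and -0.87 at E11, E12 and E16 and was at least 2.15-fold lower at E18. Ackr4 was at least 1.72-fold lower at E12. The medians of the 7 receptors were -0.20, -0.22, -0.08 and -0.09. The 3 calls among the 21 other ligands and receptors became 0 with the slide as a block (4 at an unadjusted p under 0.05), where the slope of Pf4 was -0.64 ± 0.17 and that of Ppbp -0.20 ± 0.16. They also became 0 without the E11 array (6 unadjusted), 2 without the E12 array, 6 without the E16 array and 9 without the E18 array. Of 11 alternative settings, Pf4 and Ppbp each kept their call in 9 and Ackr2 in 7. E11 and E12 share 1 slide and E16 and E18 the other, so slide and the side of E14 cannot be told apart.

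**Figure D4:**
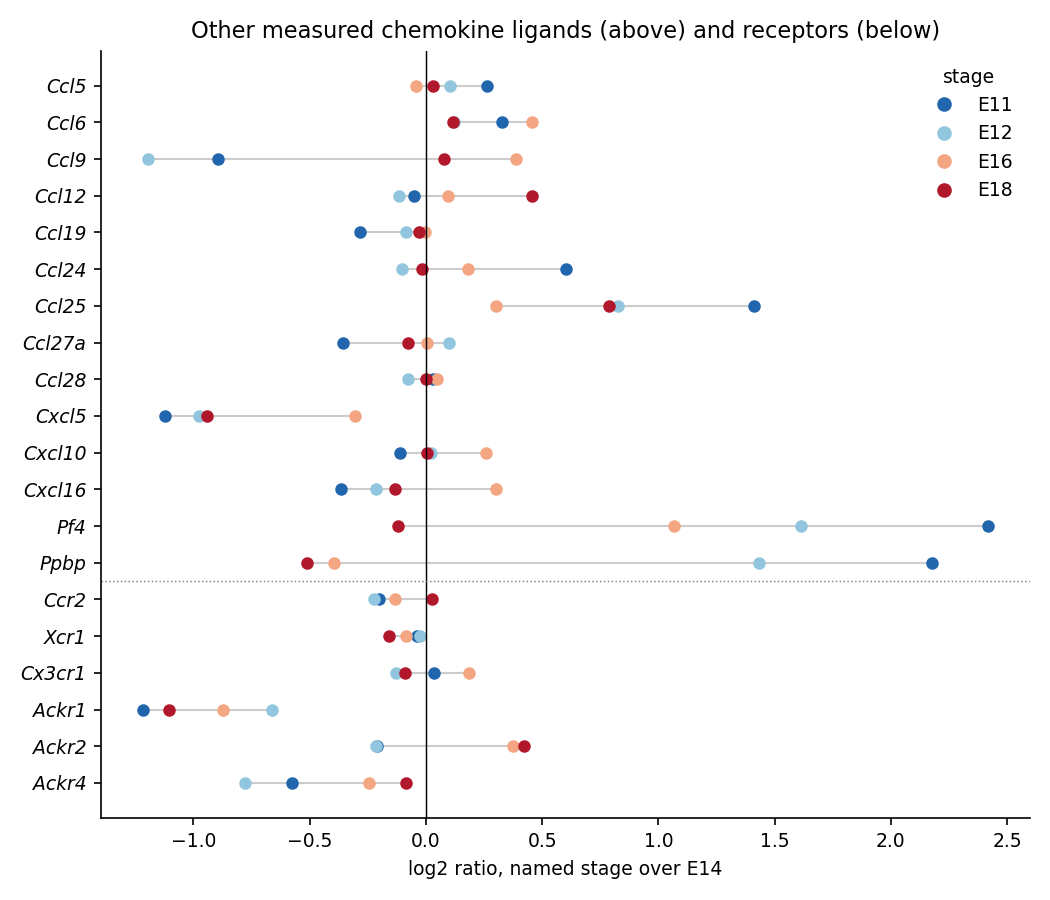
Log2 ratio of the named stage over E14 (horizontal axis) for the 14 other measured chemokine ligands, above the dotted line, and 6 of the 7 other measured receptors, below it, 1 point per stage. Points not above background are drawn at their measured value. Pf4 and Ppbp reach 2.42 and 2.18 at E11, while most other genes stay within 1 log2 unit of E14.

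Among partners of the Cxcl12 axis, Dpp4, Arrb1 and Pik3r5 rose and Hmgb1 fell with embryonic day. Of 31 listed genes, all on the array, 28 were measured, so that 3 rose, where 6.43% of all genes did, and 1 fell, where 2.66% did. Dpp4, a protease that inactivates Cxcl12, stood at -0.26, -0.25, 0.90 and 1.25 at E11, E12, E16 and E18, a slope of 0.23 ± 0.02 (adjusted p = 0.007, limma). It was above background in the stage channel only at E16 and E18, and at least 1.15-fold lower at E11 and 1.19-fold lower at E12. Arrb1, one of the arrestin genes, stood at 0.88, 0.53, 1.36 and 2.66 (slope 0.25 ± 0.06, adjusted p = 0.043, limma), above E14 on all 4 arrays. Arrb2, the other arrestin gene of the list, stood at 0.14, 0.01, -0.22 and -0.23 and did not pass. Pik3r5, a subunit of the G protein-activated phosphoinositide 3-kinase, had a slope of 0.12 ± 0.02 (adjusted p = 0.029, limma). Hmgb1, a nuclear protein that binds Cxcl12 when released, fell with a slope of -0.16 ± 0.03 (adjusted p = 0.027, limma).

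The other 24 measured partners did not pass. Penk, the precursor of opioid peptides that Ackr3 can scavenge, stood at -1.92 at E11 and 0.30 at E12, then -0.30 at E16 and -1.13 at E18. Stat3 stood at -1.51, -1.22, -0.43 and -0.87, and Cd74, a receptor of Mif, at -0.93, -1.36, -0.28 and -0.61. Rgs16, which dampens inhibitory G protein signals, was at least 2-fold lower at E12 and at -0.64, -0.34 and -0.61 at E11, E16 and E18. Elmo1, an adaptor in Rac activation, was at least 1.37-fold lower at E11 and 1.21-fold lower at E18, and Adm, a peptide also bound by Ackr3, at least 1.22-fold higher at E16. The medians of the 28 genes were -0.17, -0.19, -0.06 and -0.14, against -0.02 to 0.01 for all genes. With the slide as a block 0 of them passed (2 at an unadjusted p under 0.05). Without the E11 array or without the E12 array 1 passed, and with median centring, or with the median over a gene's probes, 2 did. Of 11 alternative settings, Dpp4 kept its call in 10, Hmgb1 in 7, Pik3r5 in 6 and Arrb1 in 4.

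Markers of the tissues within the germ moved over the same days as Cxcl12 and Ackr3. The calls given here for markers, as all trend calls, ended with the slide as a block, and are to be read against the 6.43% of all genes that rose and the 2.66% that fell. Of 12 dental mesenchyme markers 8 fell and 1, Dlx2, rose, with medians of 0.06, 0.00, -0.79 and -1.69 at E11, E12, E16 and E18. Their summed normalised signal was 38265, 39776, 21274 and 15673, against 46417 to 47630 at E14. Its members with the highest signal were Prrx1, at 0.01, -0.02, -2.72 and -3.92, and Vim, at -1.39, -1.01, -0.34 and -1.07. Prrx1 was far below E14 at E16 and E18, like Cxcl12, and Vim did not pass the trend. Of 12 dental epithelium markers 8 rose and none fell, with medians of -1.40, -0.69, 1.09 and 1.096. Their summed signal was 13767, 29102, 125456 and 111042, against 69753 to 82344 at E14. With the slide as a block the slope of Prrx1 was -0.49 ± 0.17, against -0.59 ± 0.04 without it, and that of Krt5 was 0.03 ± 0.21, against 0.60 ± 0.09. Krt5 stood at -3.35, -2.16, 1.09 and 0.56 and Krt14 at -2.54, -1.09, 0.48 and -0.35. The part of these markers in the courses of Cxcl12 and Ackr3 was not tested.

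Markers of blood and vessel cells were also present in the germs, and part of the nerve and muscle lists was measured. All 15 leukocyte markers were measured, 1 (Tyrobp) rose and 1 (Coro1a) fell, calls that the slide block ended, and the summed signal was 3427, 2400, 4791 and 3862 at E11, E12, E16 and E18, against 3505 to 3653 at E14. Lyz2, with the highest signal among them, stood at -0.89, -1.87, 0.79 and 0.15, and the medians of the list were -0.08, -0.35, 0.11 and -0.02. Coro1a stood at 0.69, 0.28, -0.39 and -0.61 and Tyrobp at -0.63, -1.03, 0.50 and 1.34. Of 14 endothelial markers none rose or fell, and the summed signal was 6618, 5900, 7663 and 6067, against 8801 to 9261 at E14. Their medians were -0.26, -0.35, -0.31 and -0.42. Ramp2 stood at -0.95, -1.09, 0.14 and -0.67, Egfl7 at -0.49, -0.64, -0.23 and -0.58, and Vwf at 0.53, 0.94, -0.05 and 0.16. All 14 endothelial markers were above background at each stage. Of 10 nerve markers 8 were measured. Their medians were 0.32, 0.02, 0.09 and 0.18, and the median of E18 over E11 was -0.26. Among these Tubb3 (-0.57, -0.53, 0.14 and 0.59) and Stmn2 rose, and Elavl4 stood at 0.51, 0.03, -0.63 and -0.48. Nefl stood at 1.71, 0.43 and 0.55 at E11, E12 and E18. Tubb3 weighs most in the nerve sum given below, with a mean signal of 798 against 96.5 for Elavl4, the next. The E14 channel of Stmn2 was above background on 1 array only, and its level was at least 1.28-fold higher at E16 and 2.02-fold higher at E18. Of 10 muscle markers only 5 were measured. None of these rose or fell, with Tnnt1 at 0.28, -0.50, -0.31 and 0.02 and Mylpf at 0.64, 0.11, 0.40 and 0.70. Their summed signals were 1386, 1086, 1527 and 1909 for nerve, against 1259 to 1382 at E14, and 611, 419, 485 and 525 for muscle, against 486 to 509 at E14. The part of these cells in the levels of the 6 genes was not tested.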

How the data were processed

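Agilent Feature Extraction 10.5.1.1 made the deposited files, which give each spot's intensity in both channels and its flags, per the file headers. Their log10 ratio is that of the software's corrected Cy5 and Cy3 signals, again per the file headers. The series value table equalled it for 100% of values on each array, with column medians of 0. The submitters' processing notes name the same software.

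From the deposited intensity values, limma 3.58.1 in R 4.3.3 corrected background (normexp with an offset of 50) and normalized each array by loess. Control spots were left out, as were 92 to 126 spots per array flagged as outliers. No spot was saturated, and a probe's spots were averaged. The offset shrinks ratios of dim genes. Of probes, 52.5% to 59.0% were well above background in the stage channel and 54.3% to 57.0% in the E14 channel. The number of arrays, 4, limits the precision.

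Probes were named through RefSeq's gene table by accession (22943), symbol (6658) or synonym (3109), and the array's own name was used for 8455. The probe of highest mean signal stood for a gene. A gene counted as measured where that probe cleared background on 1 array in Cy5 or on 2 in Cy3. Per-channel levels and bounds used Aquantile and are open to dye bias. The detection floor was the lowest level of any probe above background in that channel of the array. Where the dim signal exceeded this floor, the bound equals the normalised ratio and is no guaranteed minimum. The trend used lmFit and eBayes with an intensity trend on 2 residual degrees of freedom, with Benjamini-Hochberg adjustment over 17396 genes. It was also run on simulated data with independent noise and no slide effect. That run cannot show how the slide affects the calls. With 1 pool per stage, p-values weigh the slope against departures from a straight line over stages, not against the spread between pools.

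The 6 genes and all lists were chosen with earlier results of these data known. Named were all 6 genes and the 3 nearest genes of each. The chemokine and axis lists gave genes that passed the trend or lay at least 2-fold from E14 while above background in both channels. They also gave the 3 largest bounds per list. Each marker list gave its 2 genes of highest signal and those that passed the trend, as counts where more than 3. Markers at least 2-fold from E14 were not named on that ground. Ccr2, Cx3cr1, Arrb2, Vwf, Nefl and some bounds beyond the 3 largest are named outside this rule, after their values were seen. Alternatives were no background correction, normexp with offset 0, the scanner's log ratios, median centring, the median over a gene's probes, no filter on dim genes, the slide as a block and leaving out each array. The values of 1 receptor are not reported here.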

Additional observations from a re-analysis of the deposited data

How the results depend on the processing

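E18 over E11 kept its sign for the 6 genes in every setting run, except Cx3cl1. Its value was -3.84 for Cxcl12, 1.41 for Ackr3, 0.93 for Ccl2 and 0.27 for Cx3cl1 without background correction. With offset 0 it was -3.99 for Cxcl12, 0.31 for Cxcr4, 1.43 for Ackr3 and 1.75 for Ccl2, and with the scanner's log ratios -4.05 for Cxcl12, 0.058 for Cxcr4 and 2.65 for Ccl2. With median centring it was -4.48 for Cxcl12, 0.033 for Cxcr4, 0.95 for Ackr3, -0.95 for Cxcl14, 0.63 for Ccl2 and -0.10 for Cx3cl1. With the median over probes Cxcl12 stood at -2.14. Of 24 ratios to E14, median centring turned the sign of 1, Cx3cl1 at E16 (0.38). That setting put the median of all genes at 0.40, 0.64, 0.57 and 0.17 at E11, E12, E16 and E18. Trend calls over all genes, 1582, became 0 with the slide as a block (593 at an unadjusted p under 0.05) and ranged between 219 and 2452 with 1 array left out (219 without E11, 411 without E12 and 2452 without E16). Rising calls made up 70.7% of them, and 41.2% with median centring. Calls among other chemokines, 3, became 0 with the block and 0 to 9 with 1 array left out. Calls among the axis partners, 4, became 2 with median centring, 2 with the median over probes, 0 with the block and 1 to 5 with 1 array left out. The causes were not tested. Each stage was set against the E14 RNA on its own array. Pools of different named stages could not be paired, because each stage has 1 pool and the columns carry no replicate number. For Ccl2, the E18 over E11 values above rest on an E11 signal that was not above background. They show only how the value moved with the setting, and neither their size nor their kept sign is read as a difference between stages. Signals near background limit Ccl2, Cxcr4 and most other chemokines.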
